A study of Mus musculus with 32 samples.

Results

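The genomic neighbourhoods of 4 anti-inflammatory target genes of the glucocorticoid receptor (GR) were examined in mouse liver: Tsc22d3, Dusp1, Nfkbia and Zfp36. A window of the mm9 genome was taken around each gene, chrX:136930000-137150000 for Tsc22d3 (220 kb), chr17:26580000-26710000 for Dusp1 (130 kb), chr12:56520000-56660000 for Nfkbia (140 kb) and chr7:29100000-29220000 for Zfp36 (120 kb). Every interval of the 5 deposited lists with its centre in a window was counted as belonging to that gene's locus, which gave 235 of the 180039 intervals. These were 34 of 11666 GR peaks, 35 of 25392 C/EBPβ peaks and 73 of 63473 DNase I hypersensitive sites (DHS) of the dexamethasone lists, and 29 of 22714 C/EBPβ peaks and 64 of 56794 DHS of the vehicle lists. The Tsc22d3 window held 82 of the 235 intervals, the Dusp1 window 44, the Nfkbia window 59 and the Zfp36 window 50.

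The livers came from male C57BL/6 mice, 8 weeks old, from which both adrenal glands had been removed. Treated mice received a complex of dexamethasone, a synthetic GR ligand, with cyclodextrin (1 mg/kg in 300 ul), control mice received cyclodextrin vehicle, and the design text gives a time of 1 h. Accessible chromatin was mapped by DNase-seq, and binding of GR and of C/EBPβ, a leucine zipper transcription factor abundant in hepatocytes, by ChIP-seq. The labels give 2 samples per assay and condition, but the lists hold 1 set of positions per assay and condition, and the GR list names no treatment. No list carries a height, read count or replicate, so depth is unknown and a difference between a dexamethasone and a vehicle list has no replicate check. No p-value is given for this reason, and because the windows were chosen with earlier results of these data known. Intervals in parentheses after shares are exact (Clopper-Pearson) 95% binomial intervals and cover counting error only, because regions of 1 window are not independent.

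GR is a nuclear receptor that stays in the cytoplasm until it binds hormone and then enters the nucleus and binds DNA, often in chromatin that other factors already keep open. Part of its anti-inflammatory action runs through genes that it switches on. Tsc22d3 encodes GILZ, a leucine zipper protein that binds and restrains NF-κB and AP-1. Dusp1 encodes a phosphatase (MKP-1) that inactivates the p38 and JNK kinases. Nfkbia encodes IκBα, which holds NF-κB in the cytoplasm. Zfp36 encodes tristetraprolin, which binds AU-rich elements of cytokine mRNAs and directs their decay.

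To show the start regions of the 4 genes, the 250 bases upstream of the annotated start are printed from RefSeq (GRCm38.p6, all on the minus strand, written 5′ to 3′ along the gene). For Tsc22d3, RefSeq gives 3 start regions, and the one shown is the only one of the 6 entries of these genes with a match to a searched motif.
Tsc22d3 (chrX:140600523-140600772): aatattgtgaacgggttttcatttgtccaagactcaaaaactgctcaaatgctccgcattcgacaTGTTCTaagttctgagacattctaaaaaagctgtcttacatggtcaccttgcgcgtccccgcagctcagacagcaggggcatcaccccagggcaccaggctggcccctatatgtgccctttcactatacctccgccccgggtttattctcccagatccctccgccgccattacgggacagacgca
Dusp1 (chr17:26508473-26508722): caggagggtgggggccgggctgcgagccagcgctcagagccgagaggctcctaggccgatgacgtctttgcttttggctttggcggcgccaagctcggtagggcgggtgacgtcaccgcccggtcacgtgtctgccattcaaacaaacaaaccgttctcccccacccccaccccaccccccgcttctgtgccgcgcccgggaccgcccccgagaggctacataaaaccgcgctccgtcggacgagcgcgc
Nfkbia (chr12:55492648-55492897): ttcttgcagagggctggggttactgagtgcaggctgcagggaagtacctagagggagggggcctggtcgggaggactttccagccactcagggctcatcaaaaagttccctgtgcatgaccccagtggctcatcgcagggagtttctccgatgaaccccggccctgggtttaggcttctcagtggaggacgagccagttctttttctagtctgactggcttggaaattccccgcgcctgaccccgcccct
Zfp36 (chr7:28379229-28379478): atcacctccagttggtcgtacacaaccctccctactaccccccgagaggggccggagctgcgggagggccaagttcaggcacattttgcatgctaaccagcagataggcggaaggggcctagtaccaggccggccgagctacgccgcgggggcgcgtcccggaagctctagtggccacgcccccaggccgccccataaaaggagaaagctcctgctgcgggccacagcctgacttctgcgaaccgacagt
Both strands were searched for the GR element core ACANNNTGT, for the C/EBP element TTGCNNAA and for AGAACA, the hexamer that a full GR element holds as an inverted repeat. The GR core was in 0 of the 6 entries and in 5.84% of 32851 start regions of the table. The C/EBP element was in 0 of the 6 and in 9.56% of all. The hexamer was in 1 of the 6 and in 16.1% of all, and the capitals in the Tsc22d3 sequence mark it as TGTTCT, its reverse complement. The lists use mm9 and no mm9 sequence or annotation was used here, so whether an interval covers these start regions was not examined, and nor was the sequence of any interval. For the same reason distances to genes are not given. Neighbouring genes may also lie in the windows, and which gene an interval acts on is not known from these lists. In the gene order of GRCm38.p6, Tsc22d3 lies between Prps1 and Mid2, Dusp1 between Neurl1b and Ergic1, Nfkbia between Psma6 and Aldoart2, and Zfp36 between Plekhg2 and Med29.

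Compared with genome windows of equal length, GR peaks were dense around 3 of the 4 genes. The windows were chosen with earlier results of these data known, so the percentages describe them and are no test. The Tsc22d3 window held 13 GR peaks, the Nfkbia window 11, the Dusp1 window 7 and the Zfp36 window 3. For comparison, the genome outside each locus was tiled with windows of the same length. As many or more GR peaks lay in 0.317% of the 11990 windows of the Tsc22d3 length, in 0.217% of 18851 of the Nfkbia length, in 1.18% of 20301 of the Dusp1 length and in 7.04% of 21994 of the Zfp36 length. The mean number of GR peaks in such windows was 0.971 (Tsc22d3 length), 0.618 (Nfkbia), 0.574 (Dusp1) and 0.53 (Zfp36), and between 66.5% and 76.8% of the windows held none. GR peaks cluster across the genome, so a comparison chosen after seeing the data placed the windows on each GR peak outside the locus instead. As many or more were then found in 4.86% of windows for Tsc22d3, 4.42% for Nfkbia, 18.8% for Dusp1 and 63% for Zfp36, with medians of 5, 4, 3 and 3 GR peaks. The Tsc22d3 and Nfkbia windows thus stayed among the densest under both comparisons. The Dusp1 window was among the densest of the tiled windows (1.18%) but less so among windows centred on GR peaks (18.8%). The Zfp36 window was at the median of the windows centred on GR peaks. With the windows doubled in length, the percentages for tiled windows were 1.72 (Tsc22d3), 0.552 (Nfkbia), 0.67 (Dusp1) and 14.8 (Zfp36).

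**Figure D1:**
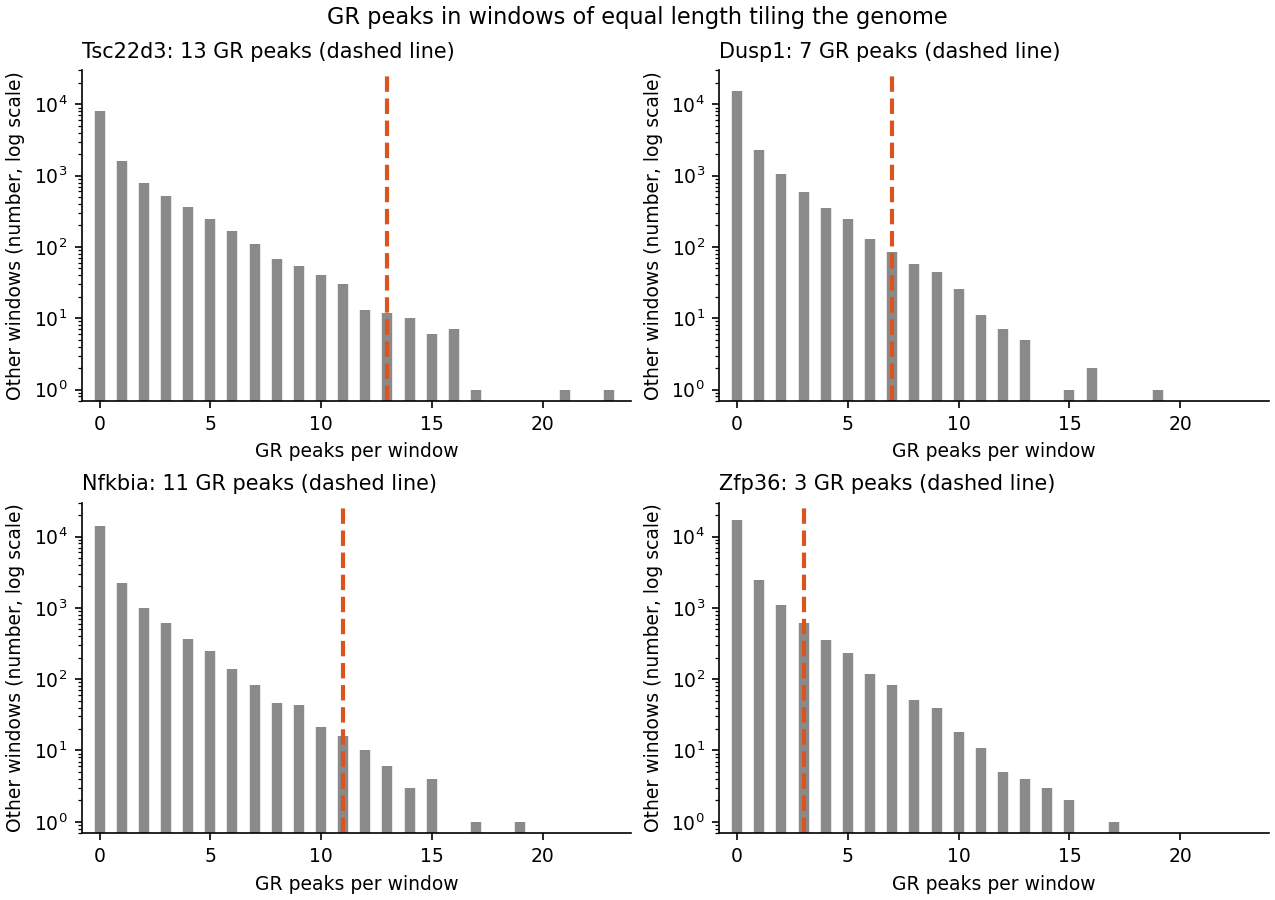
Number of equal-length genome windows (vertical axis, log scale) by the number of GR peaks they hold (horizontal axis), with the window of each gene excluded and marked by a dashed line. The lines for Tsc22d3 (13 GR peaks) and Nfkbia (11) lie far in the right tail, that for Dusp1 (7) within the tail, and that for Zfp36 (3) near the bulk.

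The Tsc22d3 window held a large part of the GR peaks of its chromosome. Its 13 GR peaks made up 12.7% of the 102 GR peaks of chromosome X, which held 0.613 GR peaks per Mb against 4.68 per Mb on the autosomes. None of the tiled windows of 220 kb elsewhere on chromosome X held as many GR peaks. The other lists were sparser on chromosome X too, with 11.5 dexamethasone DHS per Mb there against 24.9 on the autosomes. For dexamethasone C/EBPβ peaks the values were 2.02 and 10.1. The cause of the lower densities was not tested. The next GR peak lay 10659 kb before the start of the window and 1283 kb after its end. At Zfp36 the nearest GR peaks outside the window were 722 kb and 390 kb away. The Dusp1 and Nfkbia windows were less isolated on 1 side each, with a further GR peak 19.7 kb after the end of the Dusp1 window and 3.05 kb before the start of the Nfkbia window.

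GR peaks stood closer together at Tsc22d3 and Nfkbia than at the other genes. The nearest other GR centre was a median of 1.88 kb away at Tsc22d3 and 1.69 kb at Nfkbia, against 15.6 kb at Dusp1 and 6.63 kb at Zfp36. Over the 4 loci it was 2.89 kb, against 8.73 kb over all GR peaks. Another GR peak lay within 5 kb of 21 of the 34 (61.8%), against 40.3% of all GR peaks. The number was 9 of 13 (69.2%) at Tsc22d3 and 10 of 11 (90.9%) at Nfkbia. At Dusp1 (2 of 7, 28.6%) and Zfp36 (0 of 3) the share was below that of all GR peaks, but it rests on few peaks. These distances and shares are not independent of the number of GR peaks in the windows. From the first to the last GR peak the distance was 75.7 kb at Tsc22d3, 51.4 kb at Nfkbia, 106 kb at Dusp1 and 41.6 kb at Zfp36.

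**Figure D2:**
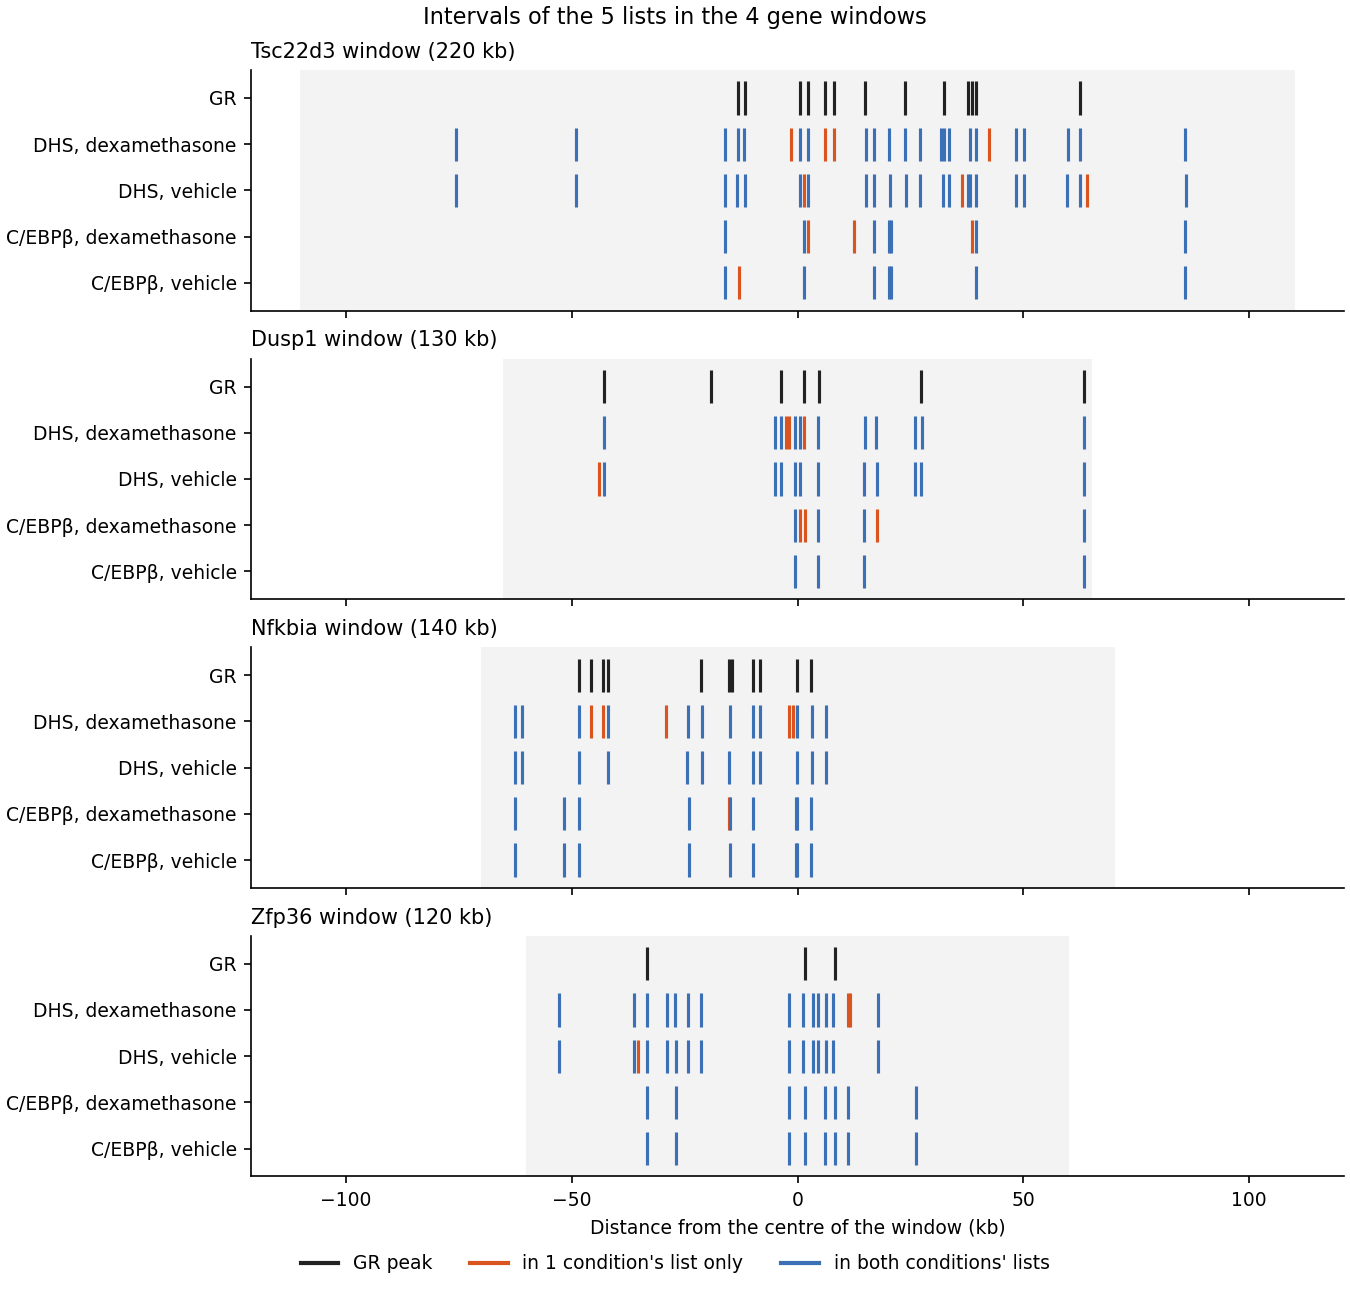
Positions of all 235 intervals as ticks, by distance from the centre of each gene's window (kb), with 1 row per list and the window shaded. Orange ticks mark DHS or C/EBPβ peaks of 1 condition's list only and blue ticks those in both. The 11 GR peaks at Nfkbia all lie left of or near the centre, while the 7 at Dusp1 are spread over most of the window.

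Accessible sites were also numerous in the 4 windows, in both lists. The Tsc22d3 window held 26 DHS in the dexamethasone list and 25 in the vehicle list, and 0.542% and 0.417% of windows of that length held as many or more. The Dusp1 window held 14 dexamethasone DHS (2.78% of windows had as many) and 12 vehicle DHS (3.7%). The Nfkbia window held 17 dexamethasone DHS (1.21%) and 12 vehicle DHS (4.5%), and the Zfp36 window 16 dexamethasone DHS (1.01%) and 15 vehicle DHS (0.914%). Dexamethasone C/EBPβ peaks numbered 10 at Tsc22d3, 7 at Dusp1, 10 at Nfkbia and 8 at Zfp36, and vehicle C/EBPβ peaks 8, 4, 9 and 8 at the same genes. As many or more dexamethasone C/EBPβ peaks lay in 4.56% of windows of the Tsc22d3 length, 4.37% of the Dusp1 length, 1.61% of the Nfkbia length and 2.41% of the Zfp36 length. For vehicle C/EBPβ peaks the shares were 6.11%, 10.9%, 1.51% and 1.65%, in the same order. The Zfp36 window thus combined many accessible sites and C/EBPβ peaks with 3 GR peaks. At Tsc22d3, Dusp1 and Nfkbia the share of windows with as many GR peaks was smaller than the share with as many C/EBPβ peaks of either list, and at Zfp36 it was larger. Between 27.3% and 38.8% of the tiled windows held no dexamethasone DHS. Among windows with a vehicle DHS, the shares for dexamethasone DHS were 0.769%, 4.59%, 1.96% and 1.71%, in the same order of genes. For vehicle DHS they were 0.591%, 6.13%, 7.27% and 1.55%. For dexamethasone C/EBPβ peaks they were 6.47%, 7.23%, 2.6% and 4.07%, and for vehicle C/EBPβ peaks 8.66%, 18%, 2.44% and 2.79%. The length of the window also moved the percentages of tiled windows. With the windows doubled, those for dexamethasone DHS were 7.31 (Tsc22d3), 1.08 (Dusp1), 5.28 (Nfkbia) and 7.04 (Zfp36), and those for vehicle DHS 7.61, 0.611, 10.7 and 4.68 at the same genes. For dexamethasone C/EBPβ peaks they were 16, 0.69, 3.4 and 5.41, and for vehicle C/EBPβ peaks 18.6, 2.64, 2.99 and 5.21, in the same order.

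Over the 4 loci, most GR peaks lay in chromatin that was accessible without hormone, in shares close to those of GR peaks in general. A minimum of 1 shared bp counted as overlap. Vehicle DHS took in 27 of the 34 (79.4%, 62.1 to 91.3), against 79.2% of all GR peaks. DHS found in the dexamethasone list and touching no vehicle DHS (dex-only DHS) took in 5 (14.7%, 4.95 to 31.1), against 15.6% of all. A part of a shared DHS that the vehicle interval did not reach held 1 (2.94%, 0.0744 to 15.3), against 1.98% of all, and 1 was in no DHS (2.94%, 0.0744 to 15.3), against 3.26% of all. A dexamethasone DHS was thus present at 33 of the 34 (97.1%, 84.7 to 99.9), against 96.6% of all. GR peaks in dex-only DHS numbered 2 at Tsc22d3, 1 at Dusp1, 2 at Nfkbia and 0 at Zfp36. As many or more lay in 2.66% of windows of the Tsc22d3 length, 7.28% of the Dusp1 length and 1.45% of the Nfkbia length.

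Pooled over the 4 loci, C/EBPβ peaks coincided with a minority of the GR peaks. No such peak, in either list, was present at 20 of the 34 (58.8%, 40.7 to 75.4), against 37.6% of all GR peaks. A C/EBPβ peak of both lists overlapped 10 (29.4%, 15.1 to 47.5), against 50.1% of all, one of the dexamethasone list only (dex-only) 4 (11.8%, 3.3 to 27.5), against 11.9%, and a vehicle-only one 0, against 0.317%. A count of 0 of 34 allows a share of up to 8.82% by the limit of 3 counts, and of 10.3% by the exact interval. Among the 27 GR peaks in vehicle DHS, 15 had none (55.6%, 35.3 to 74.5), against 27.8% of all GR peaks in vehicle DHS. Of these 15, 8 were at Tsc22d3. GR peaks free of C/EBPβ numbered 10 at Tsc22d3, 4 at Dusp1, 6 at Nfkbia and 0 at Zfp36. As many or more lay in 0.00834% of windows of the Tsc22d3 length (1 of 11990), 0.675% of the Dusp1 length and 0.143% of the Nfkbia length. Among windows centred on GR peaks the percentages were 0.429, 9.98 and 2.85. GR centres of the loci were a median of 1.36 kb from the nearest dexamethasone C/EBPβ centre, against 45 bp over all GR peaks. This distance differed by gene, with medians of 2.83 kb at Tsc22d3, 2.94 kb at Dusp1, 290.5 bp at Nfkbia and 20.5 bp at Zfp36. Without the Tsc22d3 locus, which held 10 of the 20 GR peaks without C/EBPβ, the share without C/EBPβ was 47.6%. The intervals at Dusp1 (18.4 to 90.1), Nfkbia (23.4 to 83.3) and Zfp36 (0 to 70.8) take in the 37.6% of all GR peaks. That at Tsc22d3 (46.2 to 95) does not. The difference from all GR peaks was not tested, since GR peaks of 1 window are not independent.

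**Figure D3:**
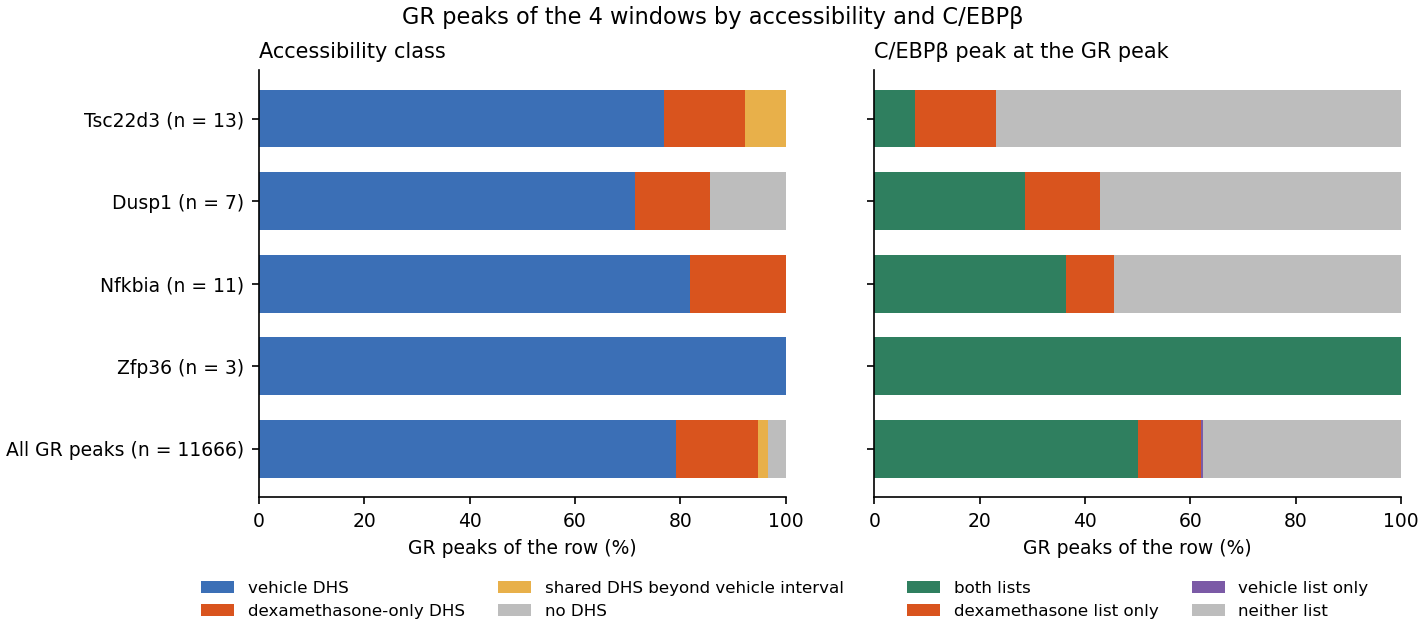
Share of GR peaks (%) in each accessibility class (left) and by C/EBPβ peak (right), for the 4 genes and, in the lowest row, for all 11666 GR peaks. Vehicle DHS (blue) make up most of every row on the left, while GR peaks with neither C/EBPβ list (grey) range from 0 of 3 at Zfp36 to 10 of 13 at Tsc22d3 on the right.

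Over the 4 loci together, DHS found in 1 list only made up no larger a share than in the whole lists. Of the 73 dexamethasone DHS, 14 were dex-only (19.2%, 10.9 to 30.1), against 23.8% of all. By gene these were 4 at Tsc22d3 (15.4%), 3 at Dusp1 (21.4%), 5 at Nfkbia (29.4%) and 2 at Zfp36 (12.5%). As many or more dex-only DHS lay in 10.7%, 8.79%, 2.27% and 17.1% of windows of the same length, in that order. Of the 64 vehicle DHS, 5 were vehicle-only (7.81%, 2.59 to 17.3), against 14.9% of all. GR peaks lay in 5 of the 14 dex-only DHS (35.7%, 12.8 to 64.9), against 11.9% of all dex-only DHS, and in 0 of the 5 vehicle-only DHS, against 0.153% of all vehicle-only DHS. A count of 0 of 5 allows up to 60% by the limit of 3 counts and 52.2% by the exact interval. Neither GR nor C/EBPβ was present in 8 of the 14 (57.1%, 28.9 to 82.3), against 80.1% of all. The shares with GR and with neither factor are not independent of the number of GR peaks in the windows. Shared dexamethasone DHS of the loci held GR in 44.1% of cases (31.2 to 57.6), and this interval lies within that of the dex-only ones. Over the whole list the share was 18.2% for shared and 11.9% for dex-only DHS.

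Among all dexamethasone DHS of the loci, 31 of 73 held a GR peak (42.5%, 31 to 54.6), against 16.7% of all dexamethasone DHS. The number was 12 of 26 at Tsc22d3, 6 of 14 at Dusp1, 10 of 17 at Nfkbia and 3 of 16 at Zfp36. The share was 44.1% for shared DHS of the loci (26 of 59), against 18.2% of all shared DHS. This share is not independent of the number of GR peaks in the windows.

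Of the 35 dexamethasone C/EBPβ peaks, 7 were dex-only (20%, 8.44 to 36.9), equal to the 20% over the whole list, with 3 at Tsc22d3, 3 at Dusp1, 1 at Nfkbia and 0 at Zfp36. Of the 29 vehicle C/EBPβ peaks, 1 was vehicle-only (3.45%, 0.0873 to 17.8), against 10.6% of all. GR peaks overlapped 4 of the 7 dex-only C/EBPβ peaks (57.1%, 18.4 to 90.1), against 27.5% of all dex-only ones. They overlapped 10 of the 28 dexamethasone C/EBPβ peaks that were in both lists (35.7%, 18.6 to 55.9), against 28.9% of all. The interval around 57.1% takes in the 27.5%. Of the 35, 3 lay in no DHS of either list (8.57%, 1.8 to 23.1), against 11.3% of all.

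At Tsc22d3, most GR peaks lay in chromatin accessible without hormone, and most had no C/EBPβ peak. Of the 13 GR peaks, 10 were in vehicle DHS, 2 in dex-only DHS and 1 in a shared DHS where the vehicle interval ended short of it. A C/EBPβ peak in both lists overlapped 1 GR peak, a dex-only C/EBPβ peak overlapped 2, and 10 had none in either list (76.9%, 46.2 to 95). On the rest of chromosome X, 39 of 89 GR peaks (43.8%, 33.3 to 54.7) had none. This difference was not tested.

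The dex-only DHS at Tsc22d3 with GR lay side by side. The DHS at chrX:137045507-137046654 was 1147 bp wide, and 0.524% of all 15076 dex-only DHS, whose median width was 476 bp, were at least as wide. It held the GR peak chrX:137045938-137046088, whose nearest vehicle DHS lay 3236 bp away. After a gap of 1134 bp followed the DHS at chrX:137047788-137048315 (527 bp), with the GR peak chrX:137048008-137048158, 5306 bp from the nearest vehicle DHS. The centres of both GR peaks were 3.62 kb and 4.53 kb from the nearest dexamethasone C/EBPβ centre. A further 2 dex-only DHS, chrX:137038434-137038835 (401 bp) and chrX:137082266-137082719 (453 bp), held neither GR nor C/EBPβ.

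The densest stretch of the Tsc22d3 window held 3 GR peaks, with centres 771 bp and 889 bp apart. The first, chrX:137077745-137077895, and the second, chrX:137078516-137078666, lay in the widest dexamethasone DHS of the window, chrX:137077381-137078858 (1477 bp). In the vehicle list this stretch carried a DHS of 788 bp, chrX:137077457-137078245, and an overlapping one of 150 bp, chrX:137078196-137078346. The second GR peak lay 170 bp beyond them, and its centre was 7 bp from that of the dex-only C/EBPβ peak chrX:137078523-137078673. The third, chrX:137079405-137079555, lay in a DHS that was 827 bp wide in the dexamethasone list and 476 bp in the vehicle list, with a C/EBPβ peak of both lists at its GR peak. In this stretch a GR peak, a dexamethasone DHS and a dexamethasone C/EBPβ peak thus all reached past the vehicle DHS.

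Away from this stretch, the lists also differed at single Tsc22d3 sites. The GR peak chrX:137042296-137042446 lay in a shared DHS (552 bp with dexamethasone, 623 bp with vehicle) and its centre was 20 bp from the dex-only C/EBPβ peak chrX:137042316-137042466. The third dex-only C/EBPβ peak of the window, chrX:137052538-137052688, overlapped neither GR nor any DHS. The vehicle-only C/EBPβ peak chrX:137027038-137027188, the only one in the 4 windows, had its centre 376 bp from a GR centre and lay in a DHS of the dexamethasone list. At 1 GR peak, chrX:137072367-137072517, 2 dexamethasone DHS separated by 13 bp, the one with GR being 617 bp wide, stood against 1 vehicle DHS of 1054 bp. The remaining 6 GR peaks lay in shared DHS and had no C/EBPβ peak on them, and of these DHS 5 were wider with dexamethasone (log2 ratios of widths from 0.09 to 0.40) and 1 narrower (-0.31). Vehicle-only DHS of 265, 535 and 536 bp held no GR peak, and that of 265 bp, chrX:137041372-137041637, held a C/EBPβ peak of both lists.

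At Dusp1, the 7 GR peaks were scattered. A vehicle DHS overlapped 5 of them, 1 lay in a dex-only DHS and 1 in no DHS. C/EBPβ peaks of both lists overlapped 2 GR peaks, a dex-only C/EBPβ peak 1, and 4 had none (57.1%, 18.4 to 90.1). On the rest of chromosome 17, 170 of 435 GR peaks (39.1%) had none. The GR peak outside DHS, chr17:26625756-26625906, was 13865 bp from the nearest vehicle DHS and 18.5 kb from the nearest C/EBPβ centre. It was the only one of the 34 without a DHS.

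The middle of the Dusp1 window carried a run of DHS close together. The widest, chr17:26644857-26646081, measured 1224 bp in the dexamethasone list and 1194 bp in the vehicle list, and held a dex-only C/EBPβ peak, chr17:26645516-26645666, but no GR peak. At a gap of 96 bp followed the dex-only DHS chr17:26646177-26646839 (662 bp), with the GR peak chr17:26646369-26646519 and the dex-only C/EBPβ peak chr17:26646488-26646638, whose centres were 119 bp apart. It was the only site in the 4 windows at which a dex-only DHS, a GR peak and a dex-only C/EBPβ peak came together. The GR peak lay 300 bp from the nearest vehicle DHS, so the alternative rule of overlap within 500 bp counts it as in a vehicle DHS. On the other side of the widest DHS, dex-only DHS of 570 bp (chr17:26642125-26642695) and 575 bp (chr17:26642757-26643332), separated by 62 bp, held neither GR nor C/EBPβ. The third dex-only C/EBPβ peak, chr17:26662426-26662576, lay in a shared DHS without GR. The vehicle-only DHS of the window, chr17:26600848-26601123, was 275 bp wide and held neither.

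All 5 shared DHS with a GR peak at Dusp1 were wider in the dexamethasone list, as were 5 of the 6 without one. The DHS around the GR peak chr17:26672220-26672370, which had no C/EBPβ peak, was 997 bp wide with dexamethasone and 462 bp with vehicle, a log2 ratio of 1.11 at percentile 99 of all matched DHS. That around chr17:26649590-26649740, on a C/EBPβ peak of both lists, measured 1022 bp with dexamethasone and 673 bp with vehicle (log2 ratio 0.60). The GR peak chr17:26641351-26641501 lay in a DHS of 899 bp with dexamethasone and 746 bp with vehicle. The remaining DHS measured 1075 bp with dexamethasone and 992 bp with vehicle at chr17:26602106-26602256, and 772 bp with dexamethasone and 716 bp with vehicle at chr17:26708424-26708574.

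At Nfkbia, all 11 GR peaks lay in DHS of the dexamethasone list, 9 of them also in vehicle DHS and 2 in dex-only DHS. C/EBPβ peaks of both lists overlapped 4, a dex-only C/EBPβ peak 1, and 6 had none (54.5%, 23.4 to 83.3). On the rest of chromosome 12, 194 of 498 (39%) had none. A GR peak was present in 10 of the 17 dexamethasone DHS of the window, the highest share among the 4 genes. Of the 12 vehicle DHS, 0 were absent from the dexamethasone list, which allows up to 25% by the limit of 3 counts and 26.5% by the exact interval.

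The first 4 GR peaks of the Nfkbia window included both of its GR peaks in dex-only DHS. The GR peak chr12:56541522-56541672 lay in a DHS of 504 bp with dexamethasone and 520 bp with vehicle and on a C/EBPβ peak of both lists. It was followed by dex-only DHS of 552 bp (chr12:56544014-56544566) and 494 bp (chr12:56546557-56547051), each with a GR peak and no C/EBPβ peak. The next GR peak, chr12:56547893-56548043, lay in a shared DHS of 749 bp with dexamethasone and 447 bp with vehicle (log2 ratio 0.74). The vehicle DHS nearest to the GR peaks of the dex-only sites were 2311 bp and 829 bp away.

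Further along the Nfkbia window, the DHS chr12:56574274-56575726 held 2 GR peaks with centres 585 bp apart. It was 1452 bp wide in the dexamethasone list and 929 bp in the vehicle list. The first GR peak, chr12:56574713-56574863, lay 12 bp from a dex-only C/EBPβ peak, centre to centre. The second, chr12:56575298-56575448, overlapped the vehicle DHS by 58 bp and had no C/EBPβ peak on it, the nearest centre being 290.5 bp away. The GR peak chr12:56579976-56580126 lay on a C/EBPβ peak of both lists, in a DHS of 694 bp with dexamethasone and 522 bp with vehicle, and those at chr12:56568638-56568788 and chr12:56581665-56581815 lay in shared DHS with no C/EBPβ.

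The last GR peaks of the Nfkbia window adjoined a stretch with dex-only accessible intervals. Dex-only DHS of 790 bp (chr12:56587810-56588600) and 545 bp (chr12:56588702-56589247) held neither GR nor C/EBPβ, and 3.48% of all dex-only DHS were at least as wide as that of 790 bp. They lay 102 bp apart, and 81 bp before the shared DHS chr12:56589328-56590339. This DHS held the GR peak chr12:56589779-56589929 and 2 C/EBPβ peaks of both lists. The GR peak chr12:56592922-56593072 lay in the widest DHS of the window, which was narrower in the dexamethasone list (1779 bp) than in the vehicle list (2088 bp). The remaining dex-only DHS of the window, chr12:56560660-56561235 (575 bp), held neither factor.

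At Zfp36, all 3 GR peaks lay in DHS present with and without hormone and on C/EBPβ peaks of both lists. Their centres were 17.5, 20.5 and 127 bp from the nearest C/EBPβ centre. The GR peak chr7:29126579-29126729 lay in a DHS of 578 bp with dexamethasone and 604 bp with vehicle, and chr7:29161524-29161674 in a DHS of 1678 bp with dexamethasone and 1638 bp with vehicle. The third, chr7:29168158-29168308, lay in the widest DHS of the window, 1928 bp with dexamethasone and 1908 bp with vehicle. The widths differed by at most 40 bp. Of the 3 GR peaks, 0 lacked C/EBPβ, against 229 of 614 (37.3%) on the rest of chromosome 7, and a number of 3 is too small to tell these shares apart. The 2 dex-only DHS of the window, chr7:29171053-29171517 (464 bp) and chr7:29171603-29171854 (251 bp), lay 86 bp apart and had no GR peak. The first held a C/EBPβ peak of both lists, and that peak lay in no vehicle DHS. The vehicle-only DHS, chr7:29124494-29124745, was 251 bp wide and held neither.

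Widths were compared between the lists for DHS with a single partner in the other list. Those with a GR peak were wider with dexamethasone in 18 of 24 cases (75%), against 70.8% of the 8114 such DHS of the genome. Their median widths were 818.5 bp with dexamethasone and 690 bp with vehicle, and the median log2 ratio was 0.13, against 0.12 over the genome. DHS of the loci without a GR peak had median widths of 666.5 bp with dexamethasone and 676.5 bp with vehicle and a median log2 ratio of 0.02 (17 of 32 wider), against -0.02 over the genome (46.7% wider). Without the Dusp1 locus the value of 0.02 turned to -0.03. Single sites ranged from -0.31 to 1.11 with GR and from -1.09 to 0.49 without. The lowest value was that of the Zfp36 DHS chr7:29163216-29163502, which was 286 bp wide with dexamethasone and 610 bp with vehicle. The median log2 ratio at GR was 0.27 at Dusp1 (5 of 5 wider), 0.18 at Tsc22d3 (6 of 8), 0.12 at Nfkbia (5 of 8) and 0.02 at Zfp36 (2 of 3). For DHS without GR it was 0.07 at Dusp1 (5 of 6), -0.13 at Tsc22d3 (4 of 11), 0.16 at Nfkbia (2 of 4) and 0.05 at Zfp36 (6 of 11). The ratio with GR was thus higher at Dusp1 and Tsc22d3 but not at Nfkbia and Zfp36. Width is set by the calling of each list and is not a measure of signal.

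**Figure D4:**
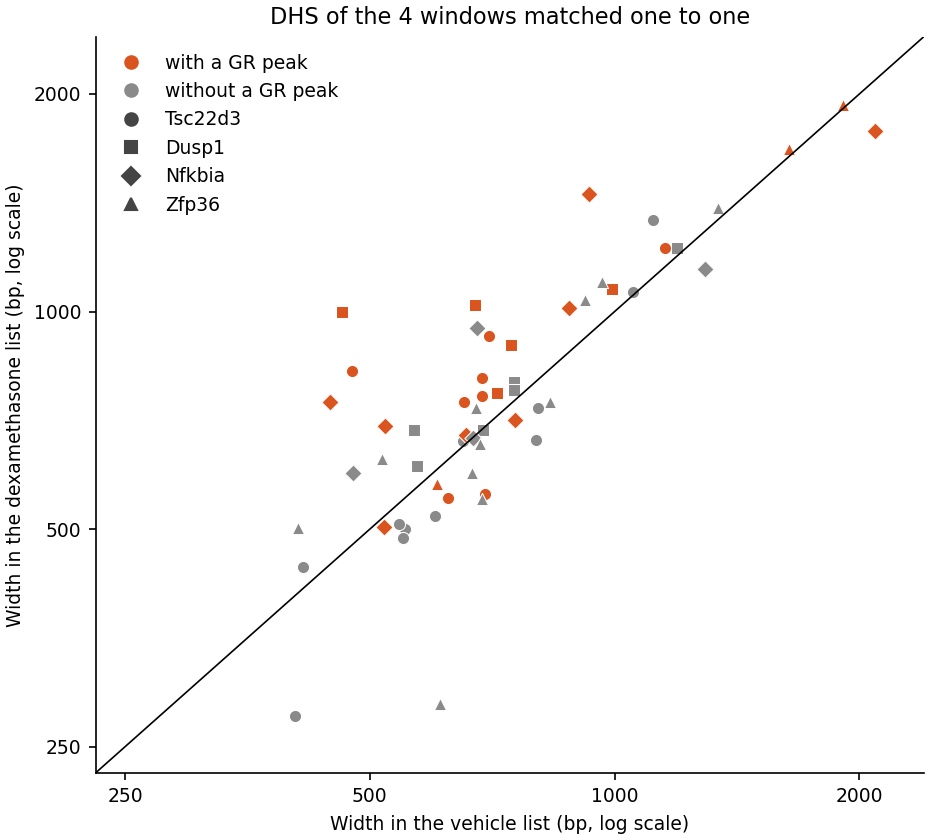
Width of each matched DHS of the 4 loci in the dexamethasone list (vertical axis, bp, log scale) against the vehicle list (horizontal axis, bp, log scale), with the line of equal width. Orange points (with a GR peak) lie above the line in 18 of 24 cases and grey points (without) in 17 of 32, and the Dusp1 DHS of 997 bp against 462 bp lies farthest above it.

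The summed width of DHS was larger with dexamethasone in all 4 windows. It came to 18689 bp with dexamethasone and 16488 bp with vehicle at Tsc22d3, and to 11356 bp with dexamethasone and 8385 bp with vehicle at Dusp1. At Nfkbia it was 13887 bp with dexamethasone and 9913 bp with vehicle, and at Zfp36 13127 bp with dexamethasone and 12709 bp with vehicle. The mean DHS width was higher with dexamethasone at Tsc22d3 (718.8 bp, against 659.5 bp with vehicle) and Dusp1 (811.1 bp, against 698.8 bp). It was lower with dexamethasone at Nfkbia (816.9 bp, against 826.1 bp with vehicle) and Zfp36 (820.4 bp, against 847.3 bp), so the larger sum there came with more intervals. The dexamethasone list as a whole held more DHS (63473) than the vehicle list (56794), with median widths of 591 bp with dexamethasone and 596 bp with vehicle. Summed widths were not compared with other windows, so whether a larger sum is particular to these loci is not known.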

How the data were processed

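DNase-seq and ChIP-seq lists of mouse liver were used as deposited. Per the file headers and values, the authors' deposited lists hold positions only (chromosome, start, end, running identifier), with no count, score or signal. The build is mm9 and a tool named is CASAVA 1.8, both per the submitters' processing notes. No aligner, peak caller, threshold or pooling of samples is given in the sources used here. Whether positions count from 0 or 1 is not stated, so they are printed as in the files. The GR intervals were all 150 bp wide, and each of the 20313 shared C/EBPβ peaks stood at identical positions in its lists, so sharing of C/EBPβ peaks was set by the deposited merge. Calling thresholds and merging could change every count here.

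Intervals were assigned to a window by their centre and counted as overlapping from 1 shared bp on. Shares were compared, without a test, with those over the whole list, and counts with windows of equal length tiling the genome outside the locus. The 3 duplicate rows of the dexamethasone DHS list lay outside the loci. Counting was checked with planted regions and with an upper bound on the sum of GR peaks over tiles (5 of 5 values recovered). The bound holds by construction, and the regions planted outside DHS were picked with the overlap function under check. For 4 of 4 overlap counts, bedtools 2.31.1 gave the same result. The software was pandas 2.3.3, matplotlib 3.10.9, scipy 1.17.1 and numpy 2.4.6 under Python 3.11.15.

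The 4 genes, their windows and the classes were chosen with earlier results of these data known. The rule for named regions was that every GR peak and every DHS or C/EBPβ peak of 1 list only within the windows is accounted for. Planned counts around further pathway genes, cell type markers and motif searches in intervals were not made, because they need an mm9 annotation or sequence, which was not used here. The RefSeq table of GRCm38.p6 matched 4 of 4 genes by symbol. Samples given an adenovirus, RNA polymerase II and input samples were not analysed here.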

Additional observations from a re-analysis of the deposited data

How the results depend on the processing

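Other overlap rules (most of the shorter interval covered, the centre inside, within 500 bp), DHS above the median width, intervals of 300 bp, other windows and the removal of each locus in turn gave 133 alternative values for 18 results, of which 109 stayed within the counting interval or spread of the reported value and 24 moved. The sign turned in 1 of the 109, the median log2 width ratio of DHS without GR, which was -0.03 without Dusp1. Shares pooled over the loci made up 94 of the 133 values, and 89 of these stayed. Their counting intervals were wide and the same regions were recounted, so staying within them is a weak check. For the window percentages of DHS and C/EBPβ peaks, 66 of 104 further values moved, among them all 16 with the window doubled, such as vehicle DHS at Tsc22d3 (7.61, against 0.417 as reported). The share of GR peaks in a shared DHS beyond the vehicle interval, which rests on 1 peak, was 0 within 500 bp, with intervals of 300 bp and without Tsc22d3. The vehicle-only C/EBPβ share was 0 without Tsc22d3, and the share of GR peaks in no DHS was 0 without Dusp1. By construction these settings remove or absorb that peak. The percentage of windows with as many GR peaks also moved. In the middle 50% of the window it was 0.0583 (Tsc22d3), 0.933 (Dusp1) and 6.07 (Zfp36). With the window doubled in length it was 1.72, 0.67, 0.552 and 14.8 for Tsc22d3, Dusp1, Nfkbia and Zfp36. Among windows with a vehicle DHS it was 0.449, 1.96, 0.352 and 11.9, and centred on GR peaks (chosen after seeing the data) 4.86, 18.8, 4.42 and 63, in the same order. Windows shifted by 50% gave 1.03 for Dusp1 and 0.138 for Nfkbia, and windows of the same chromosome 0 for Tsc22d3 and 6.7 for Zfp36. The cause of these shifts was not tested. Within the counting interval, the share of GR peaks in no DHS was 14.7% with intervals of 300 bp, and likewise among DHS above the median width, settings that drop or trim DHS. The vehicle-only DHS share ran from 3.12% within 500 bp to 14% with DHS above the median width. The median log2 width ratio at GR was 0.20 without Zfp36. The share of GR peaks without C/EBPβ ran from 47.6% without Tsc22d3 to 70.6% with most of the shorter interval covered. No paired analysis was possible because the lists carry no replicates. Depth is unknown, and lists of positions cannot show how strong a site is.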
